A study of Homo sapiens with 4 samples.

Results

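CD47 and 6 further genes for proteins that shield a cell from immune attack were followed in RNA-seq of HGC-27 gastric cancer cells, 7 of the 62443 genes measured. They fell into 3 roles, a phagocytosis checkpoint (CD47 and QPCTL), the membrane regulators of complement (CD46, CD55 and CD59) and ligands of T cells (CD274, which encodes PD-L1, and CD276, which encodes B7-H3). The 7 were chosen from measured values, with the GLUP and control levels of these same libraries already known, so their differences between the groups are given as a description, without a test. All 7 were found by symbol, and 4 of them (CD47, CD46, CD55 and CD59) had a mean of at least 1 FPKM, the floor for the fit across genes. FPKM, a fragment count scaled to transcript length and to the mapped fragments of the library, is a level that allows genes to be compared.

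The study asked how GLUP, a cyclic linker peptide built from repeats of a TEAD4-binding motif and made to draw TEAD4 molecules together, altered gene expression in cancer cells. HGC-27 is an undifferentiated human gastric cancer line, and all libraries came from this line, with no engineered allele, so they stand for a single line. The control group held 2 libraries, labelled as receiving no treatment, where the study's methods name the peptide's stocking buffer as the negative control. The GLUP group held 2 libraries of cells given the peptide at 10 μg/ml, for 12 h in one passage of the study and for 48 h in its methods.

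CD47 is a "don't eat me" signal: it engages SIRPα on macrophages and holds back phagocytosis, and QPCTL is the enzyme that forms the pyroglutamate at the CD47 N-terminus on which this contact depends. CD55 speeds the decay of the complement convertases, CD46 is a cofactor for the cleavage of C3b and C4b, and CD59 stops the membrane attack complex from forming. PD-L1 inhibits T cells through PD-1, and B7-H3 is a further member of the B7 family, found on many carcinomas.

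The libraries were not equally alike. On the log2(FPKM + 1) scale the controls correlated across genes with a Pearson r of 0.933 and the GLUP libraries with 0.986. FPKM summed to between 909735 and 949919 per library. Read depth is unknown, and a search for whole-read steps among low values could not supply it. The median log2 fold change, GLUP minus control, was −0.36 over the 7588 genes tested, and fold changes followed GC content (Spearman's rho 0.577, taken over 7570 genes that are no independent replicates), from a median of −0.78 in the fifth of genes with the lowest GC content to 0.44 in the highest. Of the markers of gastric mucosa, 6 of 8 were listed at 0 in every library. Mesenchymal markers, 6 in all, summed to 348.9 and 399.7 FPKM in the controls and 351.5 and 306.0 FPKM with GLUP. Vimentin, at 293 to 387 FPKM, gave nearly all of it, and 4 of the 6 had a mean of at least 1 FPKM. Of 6 epithelial markers, 3 had a mean of at least 1 FPKM, EPCAM and CDH1 stayed at or below 0.124 FPKM, and the 6 summed to 3.07 and 3.83 FPKM in the controls and 6.03 and 5.29 FPKM with GLUP. KRT8 stood at 1.05 and 1.49 FPKM against 2.25 and 2.19 FPKM, and KRT18 at 0.957 and 1.0 FPKM against 2.25 and 1.64 FPKM. The defining lymphocyte markers were at 0 for 6 of 7, leukocyte markers summed to between 0.0394 and 0.341 FPKM, and 5 erythroid genes summed to 12.3 and 6.95 FPKM in the controls and 26.7 and 32.9 FPKM with GLUP, nearly all from HBA1 and HBA2, a near-identical pair whose reads may be split between them. The part of the GC trend and of the epithelial and erythroid genes in the differences given here was not tested, beyond the GC-corrected values.

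The promoters of CD47 and CD274 are shown first, because each holds the motif of a factor known to regulate the gene and measured in the same libraries. Both sequences are the 250 bases before the RefSeq start on GRCh38.p14, written 5′ to 3′ along the gene. The capitals in CD47, on the minus strand at chr3:108091032-108091281, mark 2 matches to GCGCNTGCGC, the site of NRF1, a factor known to drive CD47. The capitals in CD274, on the plus strand at chr9:5450292-5450541, mark 2 overlapping matches to GAAANNGAAA, the core of the interferon response element to which IRF1 binds.
CD47: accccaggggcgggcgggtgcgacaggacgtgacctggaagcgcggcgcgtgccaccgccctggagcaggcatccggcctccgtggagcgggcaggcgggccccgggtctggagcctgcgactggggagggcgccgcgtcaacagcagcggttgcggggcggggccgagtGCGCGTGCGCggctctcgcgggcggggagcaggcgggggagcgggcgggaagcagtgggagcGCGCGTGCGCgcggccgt
CD274: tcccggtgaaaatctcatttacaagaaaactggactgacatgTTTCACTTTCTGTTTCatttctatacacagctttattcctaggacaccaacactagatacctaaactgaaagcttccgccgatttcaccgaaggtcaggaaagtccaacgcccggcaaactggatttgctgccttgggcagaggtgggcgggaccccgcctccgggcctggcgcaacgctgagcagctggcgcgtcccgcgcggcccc

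The NRF1 motif was present in 5.1% and the interferon motif in 3.0% of 34788 such promoter windows, searched on both strands. The CD47 window was 79.6% GC and that of CD276 (chr15:73684133-73684382, plus strand) 80.8%, against a median of 58.0% over all windows, while that of CD274 was 54.8%. SP1 boxes (GGGCGG) were matched 6 times for CD47, 7 times for CD276 and 1 time for CD274, and 42.6% of all windows held at least 1. The TEAD motif GGAATG, held by 11.9% of all windows, had no match in the 12 windows of the 7 genes, which says only that these letters are absent there. A match is a description of the sequence and not a bound site.

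CD47, on the minus strand of chromosome 3 (107761938 to 107810709 on GRCh37), had the widest separation of the groups among the 7 genes. Its level was 46.2 FPKM in control 1 and 14.5 FPKM in control 2, against 2.53 FPKM in GLUP 1 and 2.42 FPKM in GLUP 2. Both GLUP libraries lay far below both controls, and the lower control was still 5.73 times the higher GLUP library. The controls differed from each other 3.19-fold, whereas the GLUP libraries were nearly equal. The means were 30.3 ± 22.4 FPKM (SD, n = 2) in the controls and 2.47 ± 0.0812 FPKM (SD, n = 2) with GLUP, 12.3-fold lower. On the log2(FPKM + 1) scale the difference was −2.96 (SE 0.55), the 6th lowest of the genes tested. In bulk RNA, fewer cells carrying a transcript and less of it per cell cannot be told apart.

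The size of the CD47 difference turned on the controls. It was −2.16 on the log2(FPKM + 1) scale without control 1 and −3.77 without control 2, but −2.98 and −2.94 without GLUP 1 and GLUP 2. CD47 transcripts are poor in GC (38.4%, against a median of 46.5% for genes tested), and after the GC trend was removed the difference was −2.20. Centring each library on its median gave −2.62. In control cells CD47 stood above 95.5% of the genes with any signal, and with GLUP above 84.6%.

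QPCTL, the enzyme that modifies CD47, lies on chromosome 19 (46195661 to 46207247 on GRCh37) and was barely detected. It was at 0.0623 FPKM in control 1, 0.0591 FPKM in control 2, 0.0388 FPKM in GLUP 1 and 0.324 FPKM in GLUP 2. The groups overlapped, with GLUP 2 alone above the rest, and the log2 difference was 0.15 (SE 0.14) in a fit of all genes above 0. Its start overlaps SNRPD2 on the opposite strand, a gene at 1616 to 3830 FPKM. Whether the authors' quantification used strand is not given in the sources used here, so reads from the 2 genes may not have been told apart.

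**Figure D1:**
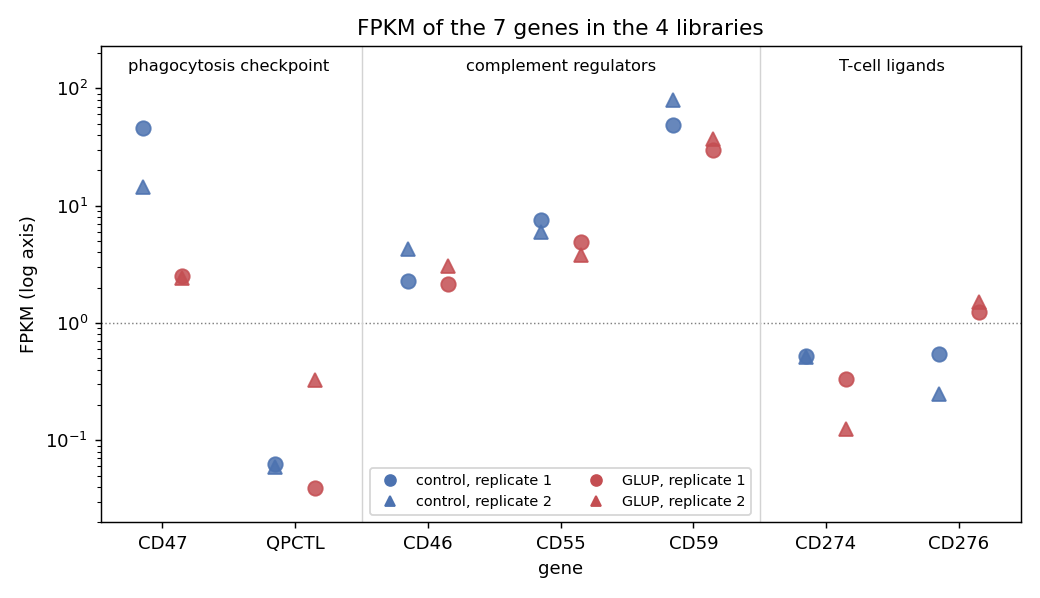
FPKM on a log axis of the 7 genes in each of the 4 libraries, grouped by role; circles are replicate 1 and triangles replicate 2, blue for control and red for GLUP, and the dotted line marks 1 FPKM. CD47 lies at 46.2 and 14.5 FPKM in the controls and at 2.53 and 2.42 FPKM with GLUP, CD59 stays the most abundant in every library, and CD276 is the gene with both GLUP points above both control points.

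The complement regulators spanned a wide range of levels but a narrower range of differences. CD59, on the minus strand of chromosome 11 (33724556 to 33758025), was the most abundant of the 7 genes in every library. It measured 48.6 FPKM in control 1 and 79.4 FPKM in control 2, against 30.0 FPKM in GLUP 1 and 37.3 FPKM in GLUP 2. Both GLUP libraries were below both controls, though the lower control exceeded the higher GLUP library by a factor of 1.31 only. The means were 64.0 ± 21.8 FPKM (SD, n = 2) and 33.6 ± 5.13 FPKM (SD, n = 2), a log2 difference of −0.87 (SE 0.38). The difference was −0.42 with the GC trend removed and −0.53 with centring, and it was −1.22 without control 1 and −0.53 without control 2. An unnamed protein-coding gene, ENSG00000284969, overlaps CD59 on the same strand with 2.45, 8.26, 0 and 1.38 FPKM in control 1, control 2, GLUP 1 and GLUP 2, so the division of reads between them is uncertain.

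CD55 and CD46 lie near each other on the plus strand of chromosome 1. CD55 (207494864 to 207560149) stood at 7.61 and 5.93 FPKM in the controls and at 4.87 and 3.78 FPKM with GLUP. Its groups did not overlap, by a factor of 1.22 between the nearest libraries, and its log2 difference was −0.54 (SE 0.30). That direction did not hold along GC content: with the GC trend removed the difference was 0.14, and with centring −0.20. CD46 (207925382 to 207968858) stood at 2.29 and 4.26 FPKM in the controls and at 2.14 and 3.03 FPKM with GLUP. Its groups overlapped, and the log2 difference of −0.22 (SE 0.34) became 0.12 with centring and 0.56 with the GC trend removed.

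The ligands of T cells were both low, and they differed in direction. CD274, on chromosome 9 (5450503 to 5470566), was at 0.526 and 0.514 FPKM in the controls and at 0.335 and 0.125 FPKM with GLUP. The GLUP libraries were both lower but differed 2.67-fold from each other. The log2 difference was −0.31 (SE 0.17) with a pseudocount of 1, which compresses changes at such levels, and −0.99 with a pseudocount of 0.1. A lncRNA, ENSG00000286162, overlaps CD274 on the opposite strand at 0.990, 2.07, 1.99 and 1.23 FPKM in control 1, control 2, GLUP 1 and GLUP 2, and reads may not have been told apart.

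CD276, on chromosome 15 (73976307 to 74006855), was the single gene of the 7 with both GLUP libraries above both controls. It read 0.545 FPKM in control 1 and 0.249 FPKM in control 2, against 1.24 FPKM in GLUP 1 and 1.5 FPKM in GLUP 2. The lower GLUP library was 2.28 times the higher control. Its mean was 0.397 ± 0.209 FPKM (SD, n = 2) in the controls and 1.37 ± 0.183 FPKM (SD, n = 2) with GLUP, 3.45 times as high, and the log2 difference of 0.77 (SE 0.20) became 1.63 with a pseudocount of 0.1. CD276 has the highest transcript GC content of the 7 (60.0%), in the range where the median gene was also higher with GLUP, and its mean over all libraries stayed below 1 FPKM.

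Counted over the set, 4 of 7 genes (CD47, CD55, CD59 and CD274) had both GLUP libraries below both controls, where 49.7% of all genes tested did, and 1 of 7 (CD276) had both above, where 17.5% did. CD274, CD276 and QPCTL, with means under 1 FPKM, are outside the genes that gave these shares. Of the 4 genes tested, CD47 alone passed an unadjusted p of 0.05 with more than a 2-fold decrease, a limit met by 14.5% of all genes tested, and 0 passed it as higher, against 4.67%. After adjustment, with limma and the Benjamini-Hochberg method, 0.0264% of all genes tested passed in either direction and no member did. The choice of the 7 used these values, so nothing is read from the counts.

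**Figure D2:**
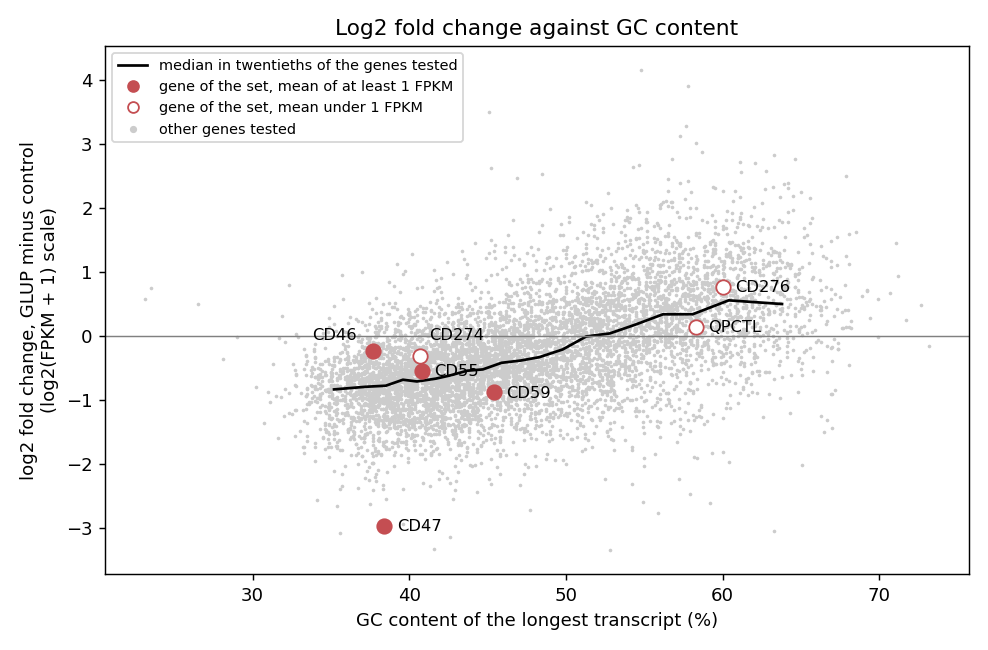
Log2 fold change, GLUP minus control on the log2(FPKM + 1) scale, against the GC content of the longest transcript in percent; grey dots are the genes tested, the line joins their medians in 20 bins, filled red points are the 4 members tested and open ones the 3 with a mean under 1 FPKM. CD47 lies at −2.96 and 38.4% GC, below the line, CD46 above it, and CD276 and QPCTL at the right where the line is above 0.

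The order of levels within a library changed with CD47. In the controls, CD59 ranked first, then CD47, CD55 and CD46, with no overlap between neighbours over the libraries, followed by CD274 and CD276, which overlapped, and QPCTL. With GLUP the order was CD59, CD55, then CD46 and CD47, which overlapped, then CD276, with CD274 and QPCTL overlapping at the end. CD47 per CD59, both in FPKM, was 0.95 and 0.182 in the controls and 0.0843 and 0.0648 with GLUP. CD47 per CD55 was 6.07 and 2.44 in the controls and 0.519 and 0.639 with GLUP, so CD47 went from the more to the less abundant of the pair. The ratio of CD55 to CD59 overlapped between the groups, at 0.156 and 0.0747 against 0.162 and 0.101. CD276 per CD274 was 1.04 and 0.485 in the controls and 3.71 and 12 with GLUP.

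Summed by role, the phagocytosis pair summed to 46.3 and 14.5 FPKM in the controls and to 2.57 and 2.74 FPKM with GLUP. The complement regulators summed to 58.5 and 89.6 FPKM in the controls and to 37.0 and 44.1 FPKM with GLUP, most of it CD59. T-cell ligands summed to 1.07 and 0.763 FPKM in the controls and to 1.58 and 1.63 FPKM with GLUP. All 7 together reached 105.9 and 104.9 FPKM in the controls, although CD47 and CD59 took different parts of it in each, and 41.2 and 48.5 FPKM with GLUP.

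**Figure D3:**
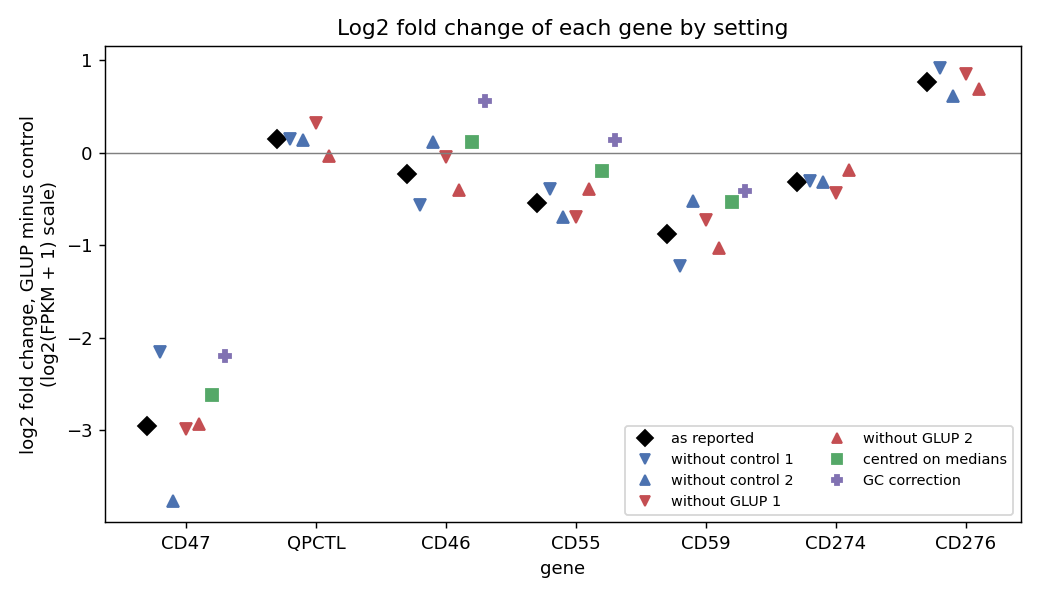
Log2 fold change of each of the 7 genes, GLUP minus control, under several settings; black diamonds are the values as reported, triangles the values without a given library, squares those after centring on library medians and crosses those with the GC trend removed (the last 2 for the 4 genes tested). CD47 stays between −3.77 and −2.16, CD59 below 0 and CD276 above 0 in every setting drawn, while CD46, CD55 and QPCTL appear on both sides of 0.

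The genes with the profile most like that of CD47 were sought by the distance between log2(FPKM + 1) values over the 4 libraries, each centred on its own mean. The 5 nearest were DCUN1D5 (distance 0.589), SMC4 (0.930), CLPTM1L (0.959), NCOR1 (0.961) and UTP18 (1.01). SMC4, a condensin subunit, shared the gap between the controls, with 24.5 and 6.37 FPKM there and 2.31 and 2.36 FPKM with GLUP. CLPTM1L had 84.0 and 61.2 FPKM in the controls and 12.6 and 11.8 FPKM with GLUP. NCOR1, a nuclear receptor corepressor, went from 31.7 and 20.3 FPKM to 4.41 and 4.28 FPKM. Transcript GC content was 35.6% for DCUN1D5, 37.4% for SMC4, 57.9% for CLPTM1L, 45.2% for NCOR1 and 45.6% for UTP18. That of CD47 was 38.4%. The likeness describes 4 libraries, and carries no test.

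Around the 7 genes, 7 lists of 150 genes in the same pathways were examined, of which 149 matched a row, 21 were at 0 in every library and 58 had a mean of at least 1 FPKM. Of these 58, 8 were lower and 2 higher at an unadjusted p under 0.05 and more than 2-fold, beside 14.5% and 4.67% of all genes tested, and 0 passed after adjustment by limma and Benjamini-Hochberg, where the smallest adjusted p was 0.10. All 8 lower calls ended with the GC trend removed, while lower calls numbered 2 with centring and 3 with quantile normalization. Higher calls numbered 4 with the GC trend removed and 5 with centring or quantile normalization. The median log2 difference of the 58 genes was −0.16, beside −0.36 for all genes tested. Both shares were near the background.

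Of the phagocytosis signals and CD47 partners, 18 of 19 matched, 6 were tested, and 0 passed in either direction (median log2 difference 0.36). The SIRPA gene, for the CD47 receptor, was at or below 0.245 FPKM, and SIRPB1 and SIRPG were among 3 listed at 0. B2M, the light chain of MHC class I and itself a signal against phagocytosis, stood at 10390 and 6942 FPKM in the controls and 11520 and 11830 FPKM with GLUP. Its log2 difference was 0.46, and 1.21 with the GC trend removed. In that setting B2M passed as higher at an unadjusted p under 0.05 and more than 2-fold. PDIA3, which chaperones class I loading, stood at 70.4 and 28.4 FPKM against 74.3 and 54.6 FPKM. THBS1, the secreted CD47 ligand thrombospondin-1, stood at 1.56 and 1.22 FPKM against 1.09 and 0.825 FPKM.

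Of 32 other complement components and regulators, 8 were tested, 2 of them called lower and 0 higher, with a median log2 difference of −0.21. C4BPB, the β chain of the C4b-binding protein, stood at 1.55 and 2.19 FPKM in the controls and 0.0558 and 0.336 FPKM with GLUP (log2 difference −1.26, limma adjusted p = 0.10). C1QBP and CFD, the most abundant of the list, overlapped between the groups, at 176 and 49.2 against 60.1 and 69.6 FPKM for C1QBP and at 16.3 and 3 against 4.40 and 6.22 FPKM for CFD. For both genes control 1 was the high library, as for CD47.

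Among the other B7 proteins and T-cell checkpoint ligands, 3 of 25 were tested and 1 was called higher. HLA-E, the class I molecule that engages the inhibitory receptor NKG2A, stood at 24.9 and 8.89 FPKM in the controls and 62.4 and 50.2 FPKM with GLUP, a log2 difference of 1.83 (SE 0.52, limma adjusted p = 0.106). The difference was 2.53 without control 1 and 1.14 without control 2. Both GLUP libraries were above both controls, although reads of related HLA genes can be hard to place. LGALS3, for galectin-3, overlapped between the groups at 1.56 and 0.976 against 3.53 and 1.28 FPKM. The remaining 22 genes, the costimulatory ligands CD80 and CD86 among them at 0, had means under 1 FPKM.

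In the NK-cell list, 3 of 15 genes were tested and 2 were called lower (median log2 difference −1.31). CD58, the ligand of CD2, stood at 27.8 and 25.3 FPKM in the controls and 10.6 and 9.63 FPKM with GLUP (−1.31, limma adjusted p = 0.10), and CLEC2B, the ligand of NKp80, at 19.7 and 23.3 against 7.52 and 6.17 FPKM (−1.52, limma adjusted p = 0.10). In both genes the replicates of a group were close, unlike the CD47 controls. With the GC trend removed the differences were −0.71 for CD58 and −0.70 for CLEC2B, and neither reached 2-fold. The ligands of NKG2D had means under 1 FPKM.

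Of 14 genes that set PD-L1 turnover, 9 were tested, 1 was called lower and 0 higher (median log2 difference −0.33). CMTM6, which keeps PD-L1 at the cell surface, stood at 2.86 and 1.80 FPKM in the controls and 0.553 and 0.625 FPKM with GLUP (−1.05, limma adjusted p = 0.10). Its difference was −0.29 with the GC trend removed. OTUB1, a deubiquitinase of PD-L1, overlapped at 151 and 52.1 against 108 and 127 FPKM, as did STT3A, of the glycosylation machinery, at 31.4 and 123 against 42.7 and 51.6 FPKM. Of 14 genes of interferon-γ signalling and transcription factors of CD274 and CD47, 8 were tested and 0 were called (median log2 difference −0.34). MYC, a factor known to act on both genes, stood at 8.88 and 7.15 FPKM in the controls and at 8.63 and 6.39 FPKM with GLUP.

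The factors behind the motifs marked in the promoters were low. IRF1 stood at 0.582 and 0.534 FPKM in the controls and at 1.27 and 1.28 FPKM with GLUP. NRF1 stood at 0.396 and 0.495 FPKM in the controls and at 0.583 and 0.760 FPKM with GLUP. Any part of these factors in the levels of CD274 and CD47 was not tested. TEAD4, the target of the peptide, read 1.71 and 0.227 FPKM in the controls and 1.46 and 1.36 FPKM with GLUP, so the groups overlapped. IRF1, NRF1, TEAD4, SIRPA and THBS1 were named after their values were seen.

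CD55 and CD59 are held in the membrane by a glycosylphosphatidylinositol (GPI) anchor, whereas CD46 and CD47 span it. Of 31 genes for anchor synthesis and attachment, 21 were tested, 3 were called lower and 1 higher, with a median log2 difference of −0.16. PIGK, the catalytic subunit of the GPI transamidase, stood at 5.46 and 10.1 FPKM in the controls and 1.58 and 1.73 FPKM with GLUP (−1.67, limma adjusted p = 0.10). GPAA1, a further transamidase subunit, stood at 1.78 and 0.784 FPKM against 4.25 and 4.86 FPKM (1.32, limma adjusted p = 0.10). With the GC trend removed these differences were −0.81 and 0.76, the transcripts being 34.9% and 63.4% GC, and neither reached 2-fold. The other transamidase subunits, PIGT, PIGS and PIGU, named after their values were seen, had log2 differences of 1.03, 0.52 and −0.05 and were not called. After GC correction these were 1.29, 0.57 and 0.13, and PIGT then passed the unadjusted limits as higher. PIGB, a mannosyltransferase of the pathway, and PIGP, of the first enzyme complex, had log2 differences of −1.09 and −1.15. With the GC trend removed, those of PIGB and PIGP were −0.22 and −0.50. PIGH and DPM2, the most abundant, stood at 35.7 and 34.6 against 16.6 and 18.2 FPKM and at 24.4 and 4.66 against 51.6 and 31.6 FPKM. Neither was called, with log2 differences of −0.97 and 1.79. After GC correction these were −0.58 and 1.56, and DPM2 then passed the unadjusted limits as higher.

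**Figure D4:**
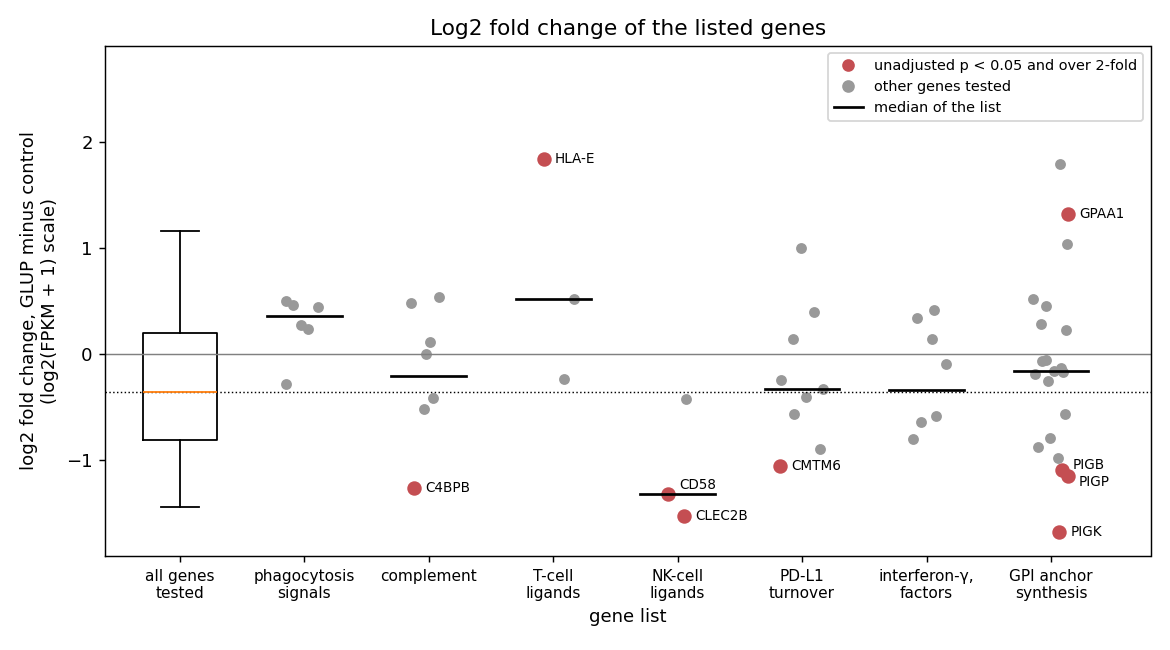
Log2 fold change, GLUP minus control on the log2(FPKM + 1) scale, of 56 of the 58 listed genes tested, by list; red points passed an unadjusted p of 0.05 and a 2-fold change, grey ones did not, bars are the medians of whole lists, and the box with whiskers at percentiles 5 and 95 shows all genes tested, whose median is the dotted line. The NK-cell ligands CD58 and CLEC2B sit lowest for their list at −1.31 and −1.52, and HLA-E is the highest of all at 1.83.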

How the data were processed

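RNA-seq was performed on HGC-27 cells, with 2 control and 2 GLUP libraries that the study's methods describe as biological replicates. The authors deposited FPKM values, 1 row per gene, and their processing notes name HISAT2, Cufflinks, RSEM and GRCh38.p10, without versions or roles. Of 62492 rows, 53057 carry the suffix of an annotation lifted to GRCh37, which is at odds with that build. Gene names (99.55% matched, 9398 with their version), positions, lengths and GC content came from GENCODE v44 lifted to GRCh37, and promoters from RefSeq on GRCh38.p14. The files hold no coordinates. The second copies of 49 genes were summed.

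Genes whose mean reached 1 FPKM were fitted as log2(FPKM + 1) with limma 3.58.1 in R 4.3.3 (eBayes with trend, 2-sided, Benjamini-Hochberg over 7588 genes). The code was checked on simulated data with independent noise for each gene, without the GC trend between these groups. That check does not measure the error rate of the calls given here. A fold change on this scale understates that of low genes. Genes under that floor took their log2 difference and SE from a fit of all 28873 genes above 0. An exact permutation test of 2 against 2 libraries cannot give a p below 0.333. Depth is unknown, so no counting interval is given. In a search for read steps, 9.0 to 10.7% of low values lay within 0.05 of a whole multiple of a unit. That unit was the median of the lowest length-scaled values and need not be 1 read, so the search cannot tell whether such steps exist. The GC trend was removed by lowess (span 0.3) of the deviations from gene means in each library. The named genes were the members, the called genes of each list (at most 4 in each direction), the 2 most abundant of each list and the 5 nearest to CD47, except where the text says otherwise; 2 listed genes are not reported here one by one, though list counts and medians include them. The members and lists were chosen with earlier results of these data known. Alternatives covered the pseudocount, the floor, centring, quantile normalization, GC, the replicate block, the fold limit and leaving out each library.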

Additional observations from a re-analysis of the deposited data

How the results depend on the processing

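CD47 stayed below 0 in all 14 alternatives (−3.77 to −2.16) and CD59 in all 14, while CD55 turned to 0.14 with the GC correction, with and without the replicate block. Several of these alternatives could not move the log2 difference of a single gene. Changing the floor, dropping the mean-variance trend or adding the replicate block only repeats the value that the gene already had. The count of 14 is therefore no measure of how firm a difference is. Counts of calls moved more. Over all genes, the 354 higher calls became 186 at a mean of at least 5 FPKM, 796 with centring and 673 with quantile normalization, and 150 (without GLUP 1) to 980 (without control 1) with a library left out. The 1103 lower calls became 1670 with a pseudocount of 0.1, 704 at 5 FPKM, 428 with centring, 486 with quantile normalization, 345 with the GC correction, 406 with GC and the replicate block, 1919 at 1.5-fold, and 437 (without GLUP 1) to 1749 (without control 1). In the lists, the 2 higher calls became 1 at 5 FPKM, 5 with centring or quantile normalization, 4 with the replicate block, the GC correction or both, and 1 to 9 with a library left out. The 8 lower calls became 3 at 5 FPKM, 2 with centring, 3 with quantile normalization, 0 with the GC correction (0 also with GC and the replicate block), 13 at 1.5-fold, and 4 to 12 with a library left out. The cause of these moves was not tested. The replicate numbers share only a number (correlation of same-numbered deviations 0.126 over 2 pairs), so the block was not used in the report.

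List medians are given here relative to all genes. The settings over all genes above 0 and at 5 FPKM also change which genes of a list are counted. Phagocytosis signals had 0.71, then 0.11 over all genes above 0, 0.28 with GC, with or without the block, and 0.39 to 0.90 with a library left out. Complement had 0.15, then −0.037 at 5 FPKM, −0.29 with GC, with or without the block, and −0.014 to 0.49. T-cell ligands had 0.87 over 3 genes, then 0.036 over all genes above 0, 2.26 at 5 FPKM, where HLA-E alone remained, and 0.37 to 1.35. NK-cell ligands had −0.96, then −0.038 over all genes above 0, −0.88 at 5 FPKM, −0.84 with quantile normalization, −0.71 with GC, with or without the block, and −1.04 to −0.91. PD-L1 turnover had 0.026, then −0.22 over all genes above 0, −0.099 with GC, with or without the block, and −0.029 to 0.064. The interferon-γ list had 0.020, then −0.26 at 5 FPKM, and −0.13 to 0.23. GPI anchor synthesis had 0.20, turned to −0.047 over all genes above 0, and had 0.014 to 0.36. For the genes with a mean under 1 FPKM, 3 of the 7, only settings that keep low genes gave a value. With 2 libraries a group and unknown depth, small differences of such genes were not resolved.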
